A study of Danio rerio with 8 samples.

Results

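The RNA of 10 pigment genes was followed through the sorted fractions of fractured zebrafish scales: *pmela*, both genes carrying the symbol *tyrp1*, *dct*, *tyr*, *oca2*, *slc24a5* and *slc45a2*, which act in the black pigment cell (melanophore), and *pnp4a* and *ltk*, which act in the reflective pigment cell (iridophore). The genes were picked by symbol from the 32057 genes of the table, and all 10 were found. The symbol table drops the final letter of *tyrp1a* and *tyrp1b*, so these are given here by their identifiers, ENSDARG00000056151 and ENSDARG00000029204, without assigning the letters. Reads from such close paralogs may be shared between them. Scales came from adult *trap:GFP*; *osterix:mCherry* double-transgenic fish of otherwise wild-type genotype and were taken 1 day after fracture. In these fish GFP is driven by a *trap* enhancer and marks osteoclasts, and mCherry is driven by an *osterix* enhancer and marks osteoblasts. RNA-seq was performed on the EV fraction (mCherry-positive particles with low Hoechst staining, without a nucleus), the GFPhigh fraction (labelled mOC), the GFPlow fraction (GFP-low and mCherry-positive, labelled pOC) and the mCh+ fraction (GFP-negative and mCherry-positive, labelled OB), the last 3 being nucleated cells with high Hoechst staining. Each fraction has 2 libraries, called replicate 1 and replicate 2. None of these gates selects pigment cells.

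Melanophores make melanin inside melanosomes. Tyr oxidizes tyrosine in the step that starts melanin synthesis, Dct and the Tyrp1 proteins act on later intermediates, and Pmela forms the fibrils on which melanin is laid down. Oca2, Slc24a5 and Slc45a2 are melanosome or endosome membrane transporters, and loss of any of them lightens pigment. Iridophores hold stacks of guanine crystals. Pnp4a, a purine nucleoside phosphorylase, belongs to the purine route that supplies guanine, and Ltk is a receptor tyrosine kinase that iridophores need to form. Both cell types, like the yellow xanthophore, come from the neural crest, and all 3 are found in zebrafish skin.

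Values are reads-per-million (RPM), the reads of a gene scaled to a fixed total of reads mapped to genes. The files of the 2 mCh+ libraries hold identical values for all 32057 genes, so mCh+ counted as 1 library without a spread, and 7 distinct libraries remained. Depth, taken from the size of the smallest steps in RPM, was 11814602 to 24435510 reads, and 3 reads corresponded to 0.123 to 0.254 RPM. The EV libraries detected 15195 genes (replicate 1) and 14125 genes (replicate 2), against 17348 to 19515 genes in the cell libraries. The osteoblast gene *sp7* (osterix) was at 0 and 0.30 RPM in EV and at 5.42 RPM in mCh+, and the osteoclast gene *acp5* (trap) was at 1132 and 1538 RPM in GFPhigh, 161 and 144 RPM in GFPlow and 12.5 RPM in mCh+. The osteoblast marker *bglap* was at 0 in all libraries. Other osteoblast markers were present in EV. *col1a2* was at 4527 and 3050 RPM there (17068 RPM in mCh+, 6182 and 6537 RPM in GFPlow). *sparc* was at 1160 and 1157 RPM in EV (2735 RPM in mCh+, 1274 and 1224 RPM in GFPlow). *alpl* was at 17.5 and 37.2 RPM in EV and 28.0 RPM in mCh+. EV held *acp5* as well, at 35.6 and 43.2 RPM. In bulk libraries, fewer cells of a type and less RNA per cell cannot be told apart.

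All 8 melanophore genes were highest in EV replicate 2, the highest library of 16.6% of the 14006 genes tested between fractions. Of the 8, *oca2* and *slc24a5* are not among those tested genes. For *slc45a2* the lead was slight, at 33.68 RPM against 33.52 RPM in GFPhigh replicate 2. *pmela* was at 31.3 and 509 RPM in EV (replicates 1 and 2), 15.5 and 1.44 RPM in GFPhigh, 7.78 and 8.09 RPM in GFPlow and 2.41 RPM in mCh+. *tyrp1* (ENSDARG00000056151) was at 22.2 and 346 RPM in EV and 9.66 and 0 RPM in GFPhigh. In GFPlow it was at 2.33 and 0 RPM, and in mCh+ at 0. Both genes were present in each EV library above every cell library, yet their 2 EV values lay further apart than the lower EV value lay from the highest cell library. The second *tyrp1* gene (ENSDARG00000029204) was also above every cell library in each EV library, at 3.23 and 18.5 RPM in EV, 0.62 and 0.25 RPM in GFPhigh, 2.33 and 0.12 RPM in GFPlow and 0.13 RPM in mCh+. These 3 are the members for which both EV libraries lay above all 5 cell libraries, an order shown by 9.84% of the tested genes.

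**Figure D1:**
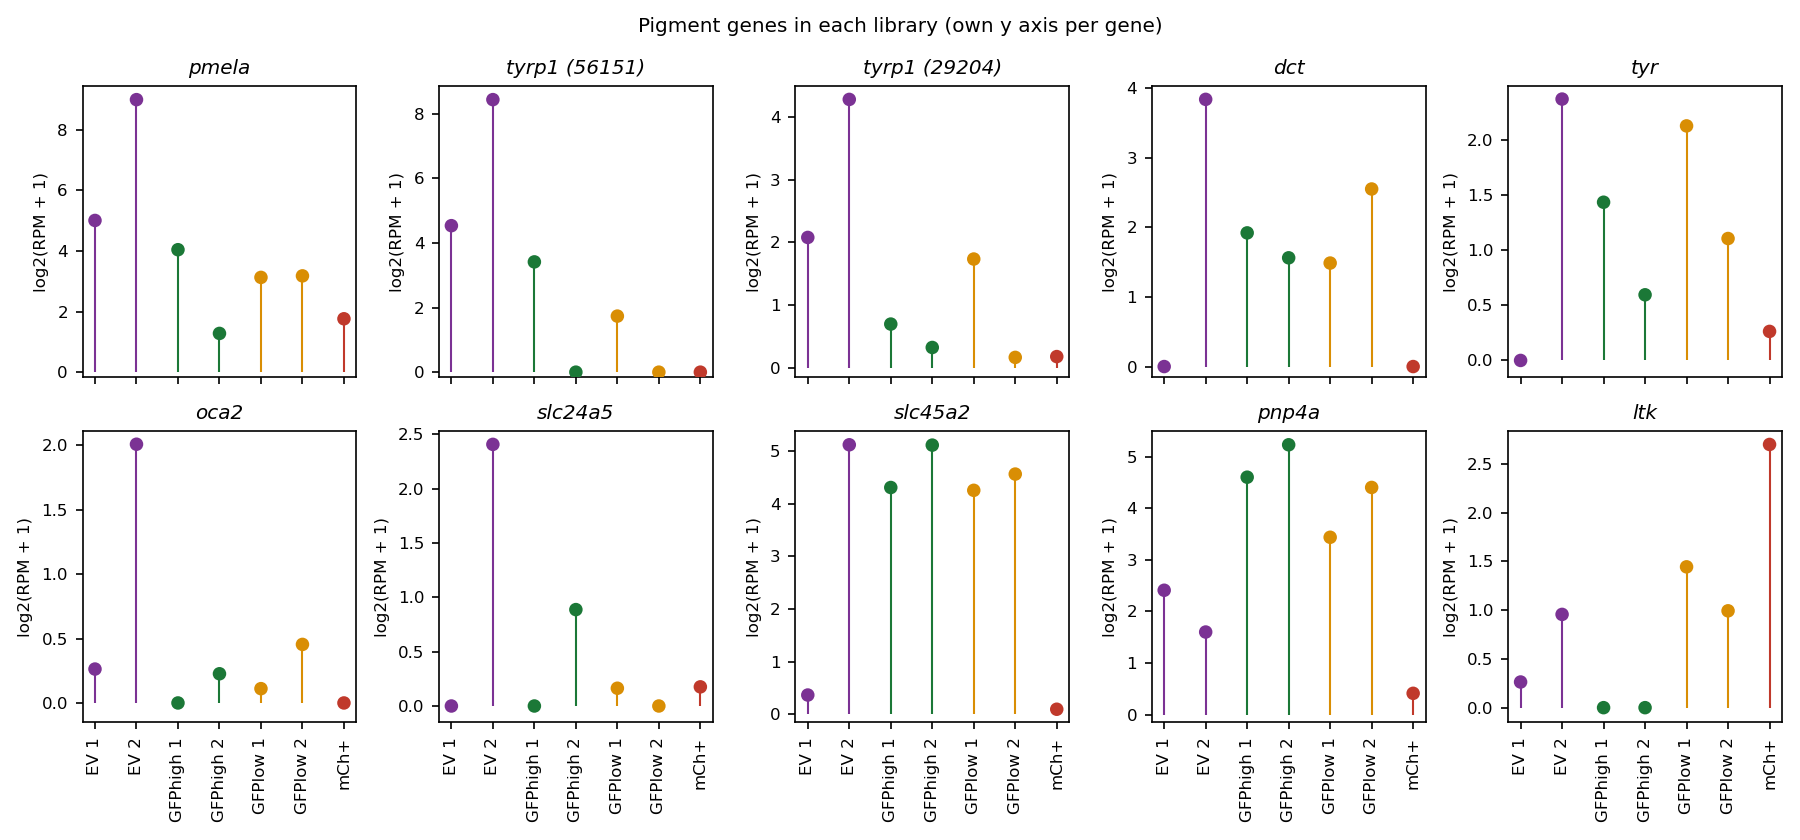
Level of each of the 10 pigment genes in the 7 distinct libraries, as log2(RPM + 1), with its own vertical axis for each gene. The 8 melanophore genes peak in EV replicate 2, *pnp4a* peaks in GFPhigh and *ltk* in mCh+, while *slc45a2* is at 33.7 RPM in EV replicate 2 and at 18.1 to 33.5 RPM in the GFPhigh and GFPlow libraries.

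The remaining enzymes and 2 of the transporters were seen in EV replicate 2 and were at or near 0 in EV replicate 1. *dct* was at 0 and 13.3 RPM in EV, 2.78 and 1.95 RPM in GFPhigh, 1.80 and 4.85 RPM in GFPlow and 0 in mCh+. *tyr* was at 0 and 4.16 RPM in EV, 1.70 and 0.51 RPM in GFPhigh, 3.36 and 1.15 RPM in GFPlow and 0.20 RPM in mCh+. Thus for *dct* and *tyr* the 2 EV libraries enclosed all of the GFPhigh and GFPlow values. *slc24a5* was at 0 and 4.31 RPM in EV, 0 and 0.85 RPM in GFPhigh, 0.12 and 0 RPM in GFPlow and 0.13 RPM in mCh+. *oca2* was at 0.20 and 3.02 RPM in EV and at most 0.37 RPM in any cell library. These last 2 genes reached 1 RPM in EV replicate 2 only and were therefore left out of the tests between fractions, which used genes with at least 1 RPM in 2 libraries.

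*slc45a2*, which encodes a sugar and proton transporter family member needed for melanin, had a different distribution. It was at 0.29 and 33.7 RPM in EV, 18.8 and 33.5 RPM in GFPhigh, 18.1 and 22.6 RPM in GFPlow and 0.07 RPM (1 read) in mCh+. The GFPhigh and GFPlow libraries overlapped each other, and EV replicate 2 was at nearly the level of the higher GFPhigh library, whereas EV replicate 1 was close to mCh+.

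Set side by side, the EV libraries held 10281 reads (replicate 2) and 638 reads (replicate 1) of *pmela*, a ratio of 16.3 in RPM (95% exact interval 15.0 to 17.7). For *tyrp1* (ENSDARG00000056151) they held 6981 and 453 reads, a ratio of 15.6 (14.2 to 17.2). The second *tyrp1* gene differed less, with 374 and 66 reads and a ratio of 5.73 (4.40 to 7.56). The ratio therefore was not the same for all melanophore genes. It was 116 for *slc45a2* (680 and 6 reads, 52.4 to 313) and 15.1 for *oca2* (61 and 4 reads, 5.72 to 58.4). Genes at 0 in EV replicate 1 were at least 90.3-fold higher in replicate 2 for *dct* (268 reads), at least 29.3-fold for *slc24a5* (87 reads) and at least 28.3-fold for *tyr* (84 reads), counting 3 reads per library as the floor. The iridophore gene *pnp4a* ran the other way, with 41 reads in replicate 2 and 88 in replicate 1 (0.47, 0.32 to 0.69). *ltk* had 19 and 4 reads (4.70, 1.6 to 19.4). These intervals, like all others below, cover counting error only, since reads copied by PCR are not independent molecules. They describe these 2 libraries, not a condition.

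Of the 9 pigment genes with at least 1 RPM in either EV library, 8 were at least 4-fold higher in replicate 2 and 0 were at least 4-fold higher in replicate 1. Over all 12714 genes with that level, the shares were 10.2% and 17.6%. The fold of 4 was chosen after the values were seen. Of the EV libraries, *dct*, *tyr*, *slc24a5*, *oca2* and *slc45a2* reached 1 RPM in replicate 2 only. The filter thus admitted them through the library in which they were high, and their count is no independent support. In the other gene lists most genes did not share the difference. Of 19 other melanophore and melanosome genes, 1 was at least 4-fold higher in replicate 2 (*mc1r*, 1.73 and 0.05 RPM, the melanocortin receptor) and 2 in replicate 1. Those 2 were *kit*, the receptor of melanophore precursors, at 0 RPM in replicate 2 and 28.4 RPM in replicate 1, and the cation channel gene *trpm1b* at 0 and 5.49 RPM. Of 11 other iridophore and purine genes, 1 was higher by that fold in replicate 2 (*ednrb*, ENSDARG00000089334) and 0 in replicate 1. Among 6 neural crest genes, *sox10*, a neural crest transcription factor, was at 3.17 RPM in replicate 2 and 0 in replicate 1, while *erbb3b* was at 0 and 10.6 RPM, *snai2* at 0.10 and 7.55 RPM and *sox9* (ENSDARG00000003293) at 0 and 2.50 RPM.

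Markers of other cells also moved between the EV libraries. The 8 keratinocyte markers summed to 439 RPM in EV replicate 2 and 1464 RPM in EV replicate 1, against 684 to 1542 RPM in the cell libraries, and 4 of the 5 at 1 RPM or more were at least 4-fold higher in replicate 1. Among them, the adhesion gene *cdh1* was at 30.5 and 402 RPM and the epidermal transcription factor gene *tp63* at 0.40 and 36.5 RPM (replicates 2 and 1). The 13 macrophage marker genes summed to 2007 and 1640 RPM, the 9 osteoblast marker genes to 5785 and 9140 RPM and the 10 xanthophore markers to 305 and 297 RPM in the same order. The macrophage and xanthophore sums both include *csf1ra*. The osteoblast sum includes *spp1*, at 861 and 1718 RPM (replicates 2 and 1). That gene was highest in GFPhigh, so the sum is not particular to osteoblasts. Of 9 macrophage marker genes at 1 RPM or more, 2 were at least 4-fold higher in replicate 2 (*c1qa* and *mfap4*, ENSDARG00000090557). In replicate 1 there was 1 (*mfap4*, ENSDARG00000088745). The part of any of these in the melanophore difference was not tested.

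**Figure D2:**
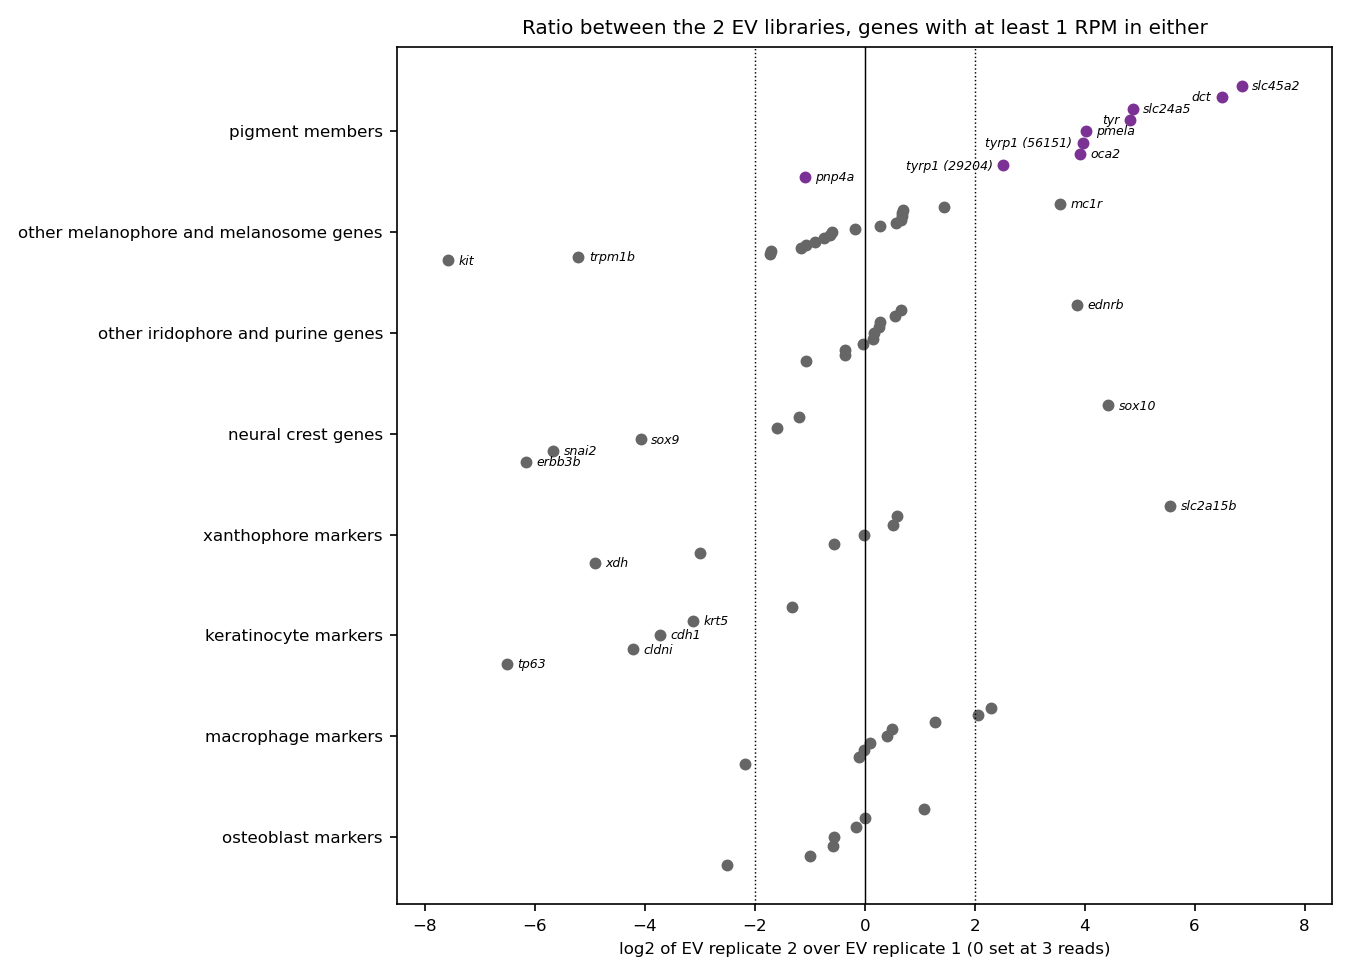
Ratio of EV replicate 2 over EV replicate 1 on a log2 axis, for genes with at least 1 RPM in either, grouped by list; a value of 0 was set at 3 reads and dotted lines mark 4-fold. Of the 9 pigment genes, 8 lie beyond 4-fold toward replicate 2 with *pnp4a* on the other side, while 4 of 5 keratinocyte markers lie beyond 4-fold toward replicate 1.

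Summed over the 8 melanophore genes, the level was 57.2 and 932 RPM in EV, 49.1 and 38.7 RPM in GFPhigh, 35.9 and 37.2 RPM in GFPlow and 2.94 RPM in mCh+. In EV replicate 2 this was 0.0932% of reads (Wilson 95% interval 0.0919 to 0.0945), and in EV replicate 1 it was 0.00572% (0.00540 to 0.00606). EV replicate 1 thus lay near the GFPhigh and GFPlow libraries, but the genes behind the sums were not the same. *slc45a2* gave 0.51% of the sum in EV replicate 1 and 3.61% in EV replicate 2, against 38.3% and 86.6% in GFPhigh, 50.3% and 60.8% in GFPlow and 2.38% in mCh+. Without *slc45a2* the sums were 56.9 and 898 RPM in EV, 30.3 and 5.17 RPM in GFPhigh, 17.8 and 14.6 RPM in GFPlow and 2.87 RPM in mCh+.

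The proportion of *pmela* to *tyrp1* (ENSDARG00000056151) was alike in the EV libraries despite the gap in level. *pmela* formed 54.7% of the 8-gene sum in EV replicate 1 and 54.6% in EV replicate 2. Its reads exceeded those of *tyrp1* by 1.41-fold (95% exact interval 1.25 to 1.59) in replicate 1 and 1.47-fold (1.43 to 1.52) in replicate 2, and by 1.61-fold (1.28 to 2.03) in GFPhigh replicate 1. In GFPlow replicate 1 the ratio was 3.34, and in the other 3 cell libraries *tyrp1* (ENSDARG00000056151) was at 0 beside 1.44 to 8.09 RPM of *pmela*. The second *tyrp1* gene did not keep its proportion to the first, at 0.146 (0.111 to 0.189) in EV replicate 1 and 0.0536 (0.0482 to 0.0595) in EV replicate 2. *dct* over *tyrp1* (ENSDARG00000056151) was 0, with an upper bound of 0.00818, in EV replicate 1, then 0.0384 (0.0339 to 0.0434) in EV replicate 2 and 0.288 (0.193 to 0.420) in GFPhigh replicate 1. These 3 intervals do not overlap, but they treat reads copied by PCR as independent and so do not bound the sampling of molecules.

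**Figure D3:**
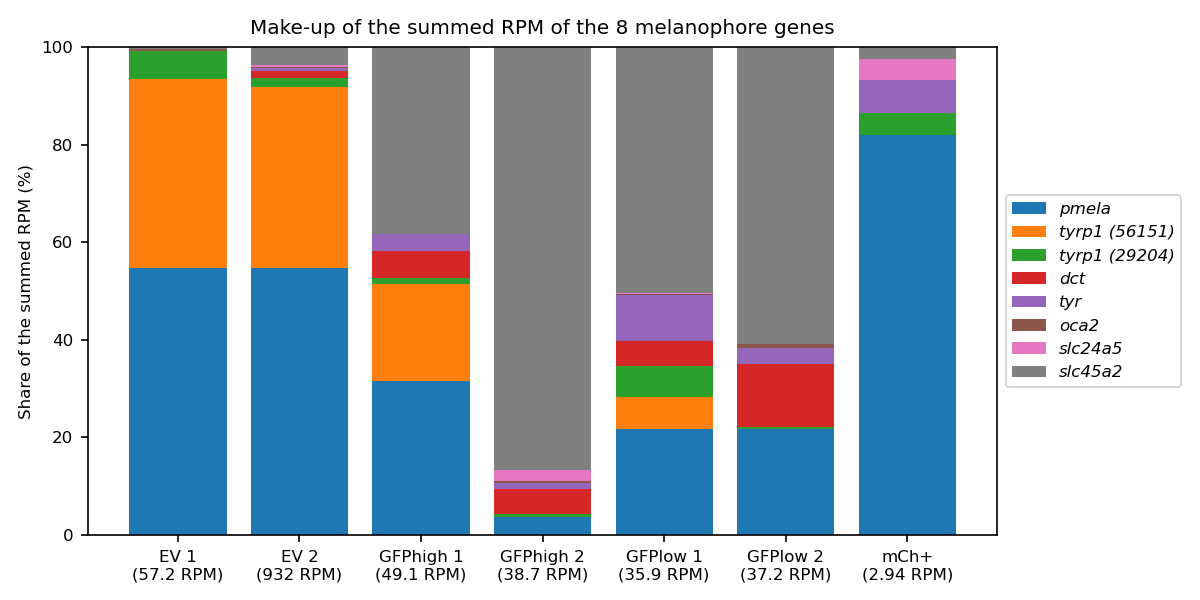
Share of each of the 8 melanophore genes in their summed RPM (percent), for each library, with the sum in brackets. *pmela* takes 54.7% and 54.6% in the EV libraries, and *slc45a2* takes 38.3% to 86.6% in the GFPhigh and GFPlow libraries.

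Whether the fractions differed was tested with limma on log2(RPM + 1) over 14006 genes, with all 7 libraries in a single fit. A gene was called at an adjusted p under 0.05 and an absolute log2 fold change above 1. Of the 10 pigment genes 8 were tested, in 6 comparisons that share their libraries, and 3 of the 48 tests gave a call. Against mCh+, EV had 0 of 8 called, where 5.05% of all genes were called (2.79% higher and 2.26% lower). At an unadjusted p under 0.05 there were 5 of 8, against 3088 of all 14006 genes. edgeR gave 0 of 8, and also 0 of all 14005 genes it tested, so its 0 is not particular to the pigment genes. DESeq2 gave 4, all higher in EV, where it called 4.74% of all genes it tested higher and 3.72% lower. *tyrp1* (ENSDARG00000056151) had a log2 fold change of 6.49 (SE 1.86, adjusted p = 0.0971) and *pmela* 5.23 (SE 1.63, adjusted p = 0.120). EV averaged 270 ± 338 RPM of *pmela* (SD, n = 2), so the spread between the EV libraries exceeded the mean. The second *tyrp1* gene had 3.01 (SE 1.04, adjusted p = 0.151), *slc45a2* 2.64 (SE 1.64, adjusted p = 0.402) and *dct* 1.92 (SE 1.42, adjusted p = 0.488). The median over the 8 genes was 2.28, against −0.18 over all genes.

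The outcome depended on which EV library was in the fit. Without EV replicate 1, 5 of 8 genes were called higher in EV than in mCh+, with *pmela* at 7.23, *tyrp1* (ENSDARG00000056151) at 8.44, the second *tyrp1* gene at 4.11 and *dct* at 3.83 on the log2 scale. In that fit 7.05% of all genes were called higher and 14.4% lower. Without EV replicate 2, 0 were called higher and *ltk* was called lower (−2.44), where 6.55% of all genes were called higher and 8.31% lower. In these fits the single EV library was assumed to vary like the other fractions.

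Against GFPhigh, EV had 0 of 8 called higher (6.58% of all genes) and 1 called lower (5.09% of all genes), which was *pnp4a*, and 11.7% of all genes were called in either direction. At an unadjusted p under 0.05 there were 4 in either direction, against 4038 of all 14006 genes. edgeR called 0 (2.18% of all genes it tested) and DESeq2 called 2 (13.3%). The estimates for *pmela* (4.34, SE 1.33, adjusted p = 0.0817) and for *tyrp1* (ENSDARG00000056151) (4.78, SE 1.52, adjusted p = 0.0890) and its paralog (2.67, SE 0.85, adjusted p = 0.0889) did not pass. Without EV replicate 1, 4 were called higher (11.8% of all genes) and 1 lower (14.4%). Without EV replicate 2, 0 were called higher (11.9%) and 2 lower (9.05%). *slc45a2* was among those lower at −4.34, and its estimate was 0.41 without EV replicate 1. Against GFPlow, EV had 0 of 8 called, where 0.0357% of all genes were called (0.0143% higher and 0.0214% lower). There were 4 of 8 at an unadjusted p under 0.05, against 2348 of all 14006 genes. Count tests were not run on GFPlow. *tyrp1* (ENSDARG00000056151) was at 5.62 (SE 1.52, adjusted p = 0.150), *pmela* at 3.84 (SE 1.33, adjusted p = 0.224) and *pnp4a* at −1.91 (SE 0.54, adjusted p = 0.163). Without EV replicate 1, 3 were called higher (1.86% of all genes) and 1 lower (10.1%). Without EV replicate 2, 0 were called higher (2.08%) and 1 lower (4.72%). The median log2 fold change of the 8 genes was 0.39 in EV over GFPhigh and −0.27 in EV over GFPlow, against −0.04 and −0.16 over all genes.

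Among the cell fractions, limma called 0 of the melanophore genes, and at an unadjusted p under 0.05 there was *slc45a2* alone, in both comparisons with mCh+. *slc45a2* had a log2 fold change of 4.61 in GFPhigh over mCh+ (SE 1.64, adjusted p = 0.159) and 4.31 in GFPlow over mCh+ (SE 1.64, adjusted p = 0.315). Both SE rest on a spread shared by all fractions, including EV, where its values were 0.29 and 33.7 RPM. mCh+, as 1 library, added no spread of its own. A limma fit with both EV libraries left out was chosen after the data were seen. It removed the EV spread, so its adjusted p = 0.00012 and 0.000841 for the same differences are no independent support. That fit called more of all genes too, 18.5% in GFPhigh over mCh+ and 7.86% in GFPlow over mCh+. Between GFPhigh and GFPlow, 0 of 8 genes were called by limma (4.42% of all genes, 0.757% higher and 3.66% lower). At an unadjusted p under 0.05 there was 1, *ltk*, against 2417 of all 14006 genes, and *slc45a2* differed by 0.30 (SE 1.34).

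**Figure D4:**
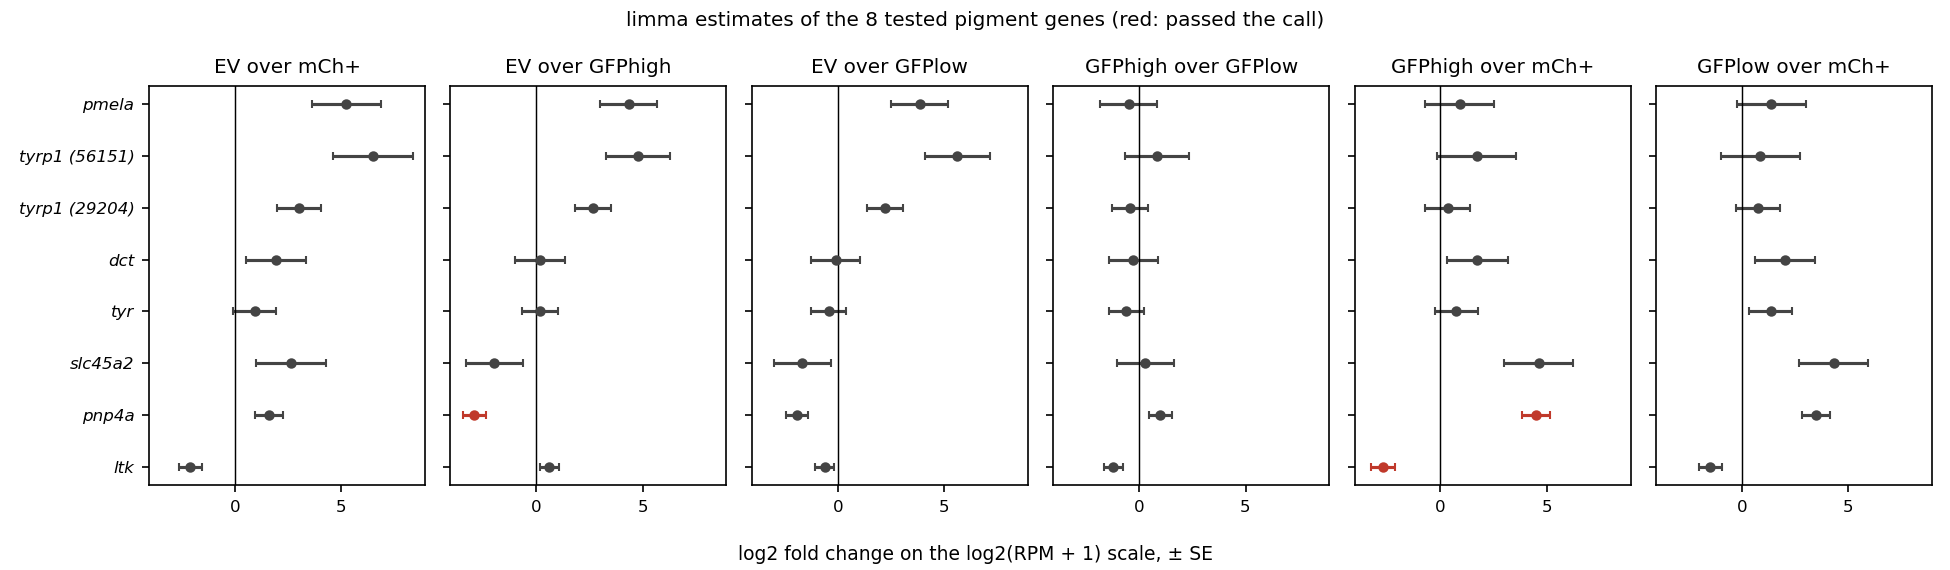
limma log2 fold changes on the log2(RPM + 1) scale with their SE for the 8 tested pigment genes in the 6 comparisons, with called values in red. The calls are *pnp4a* in EV over GFPhigh (−2.91) and in GFPhigh over mCh+ (4.50), and *ltk* in GFPhigh over mCh+ (−2.70), while *pmela* and both *tyrp1* genes have positive but wide estimates in EV.

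The iridophore genes were not distributed like the melanophore genes, nor like each other. *pnp4a* was at 4.31 and 2.03 RPM in EV, 23.3 and 36.5 RPM in GFPhigh, 9.82 and 20.1 RPM in GFPlow and 0.33 RPM (5 reads) in mCh+. The order of the fractions was GFPhigh, GFPlow, EV and mCh+, with no overlap between them. The level was lower in EV than in GFPhigh (log2 fold change −2.91, SE 0.54, adjusted p = 0.0169). It was higher in GFPhigh than in mCh+ (4.50, SE 0.66, adjusted p = 0.00896), a comparison in which 7.88% of all genes were called (3.14% higher and 4.74% lower). DESeq2 called 2 of the 8 genes in that comparison, both higher in GFPhigh, where it called 5.85% of all genes higher and 5.77% lower. edgeR called neither *pnp4a* difference (adjusted p = 0.0721 and 0.0612), and the first was lost whenever a GFPhigh or GFPlow library was left out, the second whenever a GFPhigh library was. Calls over all genes fell in each of these fits too. GFPlow over mCh+ did not pass (3.51, SE 0.66, adjusted p = 0.0634), and limma called 0 of the 8 genes in that comparison. There 1.39% of all genes were called (1.28% higher and 0.114% lower). An unadjusted p under 0.05 was seen for 3 of the 8, against 1911 of all 14006 genes. GFPhigh over GFPlow was 1.00 (SE 0.54, adjusted p = 0.430), with no call.

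*ltk* had another order, with mCh+ highest, then GFPlow, EV and GFPhigh by their means. It was at 0.20 and 0.94 RPM in EV, 0 and 0 in GFPhigh, 1.72 and 0.99 RPM in GFPlow and 5.49 RPM (82 reads) in mCh+. mCh+ was above all other libraries, and GFPhigh was at 0 in both of its libraries. GFPlow lay above EV only slightly, at 0.99 against 0.94 RPM for the nearest libraries. The limma estimate of EV over GFPlow was −0.61 (SE 0.45, adjusted p = 0.549). The level was at least 23.7-fold (replicate 1) and at least 21.6-fold (replicate 2) lower in GFPhigh than in mCh+, with 3 reads per library as the floor. The limma estimate of GFPhigh over mCh+ was −2.70 (SE 0.55, adjusted p = 0.0285), and the call was lost without either GFPhigh library, without GFPlow replicate 2, with a pseudocount of 0.1 RPM (adjusted p = 0.0521) and in edgeR (adjusted p = 0.245). Over all genes, too, fewer were called in each of these settings. Without GFPlow replicate 1 *ltk* was not tested, since mCh+ was then the single library with 1 RPM or more. EV over mCh+ was −2.09 (SE 0.55, adjusted p = 0.0787) and GFPlow over mCh+ was −1.48 (SE 0.55, adjusted p = 0.305). The paralog *pnp4b* was at 0.16 RPM or less in every library.

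The genes with the most similar course over the 7 libraries were ranked by Pearson r of log2(RPM + 1) among 8297 genes with at least 10 RPM in a library. This is a description over 7 points, of which all but mCh+ come in pairs from the same fraction. Nearest to the mean of the 8 melanophore genes were *nudcd1* (0.97), *nelfb* (0.97), *pdcd2l* (0.96), *tbc1d30* (0.96), *psma6* (0.96), *pfdn4* (0.95), *ap4e1* (0.95) and *atp10b* (0.94), none of them from the pigment lists. The 10 pigment genes were left out of each ranking, and the level of 10 RPM left out low genes of the lists such as *mc1r* and *sox10*. The absence of list genes is thus partly set by these rules. *nudcd1* was at 28.1 and 73.3 RPM in EV and 26.2 to 34.1 RPM in GFPhigh and GFPlow. *pmela* (0.92) and *slc45a2* (0.54) are themselves part of that mean, which raises their r. *pnp4a* (−0.10) and *ltk* (−0.26) are not part of it, so their r cannot be compared with those of *pmela* and *slc45a2*. Nearest to *pnp4a* were *tcirg1* (0.99), *uraha* (0.98), *gadd45gip1* (0.98), ENSDARG00000114516 (0.98), *slc4a2* (0.97), *aox5* (0.97), *bco2* (0.97) and *si:dkey-204f11.64* (0.97). Of these *tcirg1* encodes a proton pump subunit of osteoclasts and *aox5* is a xanthophore marker. Nearest to *slc45a2* were *bloc1s6* (0.99), *id2* (0.98), *acadm* (0.97), *cox7b* (0.96), *bida* (0.96), *mhc1zja* (0.96), *glod5* (0.96) and *suclg1* (0.96). The xanthophore gene *gch2* had r = 0.91 with *pnp4a*. A sugar transporter gene of xanthophores, *slc2a15b*, had r = 0.90 with *slc45a2*, below all the genes just named for it. That pair was noted after the values were seen.

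Summed, the xanthophore markers were more abundant in GFPhigh and GFPlow than in EV or mCh+, as *pnp4a* was. Their sum was alike in the EV libraries, where *slc45a2* was not. The largest values behind that sum in EV were *scarb1* (111 and 75.5 RPM) and *csf1ra* (92.2 and 91.9 RPM). Since *csf1ra* is also on the macrophage list, the sum is not particular to xanthophores. The 10 xanthophore markers summed to 297 and 305 RPM in EV, 1778 and 1637 RPM in GFPhigh, 1142 and 1268 RPM in GFPlow and 73.1 RPM in mCh+. In GFPhigh over mCh+ 7 of the 9 tested rose (3.14% of all genes) and 0 fell (4.74%), with a median log2 fold change of 3.20. *gch2*, which starts pteridine synthesis, had a log2 fold change of 7.99 (SE 0.36) there and *aox5* 6.10 (SE 0.32). In EV over GFPhigh 6 of 9 fell (5.09% of all genes), and in EV over mCh+ 4 of 9 rose (2.79% of all genes). In EV over GFPlow 2 of 9 fell, *slc22a7a* (−6.02, SE 0.40) and *aox5* (−2.80, SE 0.27), among 3 genes called lower in the whole table. *slc2a15b* was at 0.24 and 11.3 RPM in EV, 88.2 and 82.8 RPM in GFPhigh, 73.3 and 92.3 RPM in GFPlow and 0 in mCh+. Of the 7 xanthophore markers at 1 RPM or more in an EV library it alone was at least 4-fold higher in EV replicate 2 than in EV replicate 1. At least 4-fold higher in replicate 1 were *xdh*, at 0 RPM in replicate 2 and 4.46 RPM in replicate 1, and *pax7* (ENSDARG00000070818), at 0 and 1.18 RPM. Whether xanthophores contributed to the levels of *pnp4a* and *slc45a2* was not tested.

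Most of the other melanophore and melanosome genes did not share the difference between the EV libraries seen for the pigment enzymes. Of 20 tested, 5 rose in EV over mCh+ and 0 fell: *gpnmb*, a melanosome and lysosome glycoprotein gene (5.72, SE 0.84), *rab38* (3.57, SE 0.60) and *rab32* (2.51, SE 0.31), whose small GTPases carry enzymes to melanosomes, *gpr143*, a melanosome receptor gene (2.90, SE 0.44), and *hps4* (1.39, SE 0.30), a trafficking factor gene. The median over the 20 was 1.17. Over all genes 2.79% rose and 2.26% fell in that comparison. Of 9 tested macrophage marker genes, 4 also rose there and 0 fell, so the rise is not particular to this list. The EV libraries were close for the 5 genes of the list that rose. *gpnmb* was at 406 and 641 RPM in EV, 9.5 and 1.1 RPM in GFPhigh, 157 and 159 RPM in GFPlow and 8.70 RPM in mCh+. *rab38* was at 20.1 and 13.3 RPM in EV and at most 7.33 RPM in any cell library. *gpr143* was at 9.46 and 15.1 RPM in EV, against 59.9 and 54.1 RPM in GFPhigh, where it was highest. Against GFPhigh 5 rose in EV (6.58% of all genes) and 2 fell (5.09%). The 2 that fell were *gpr143* (−2.16, SE 0.36) and *mitf* (ENSDARG00000003732) (−2.27, SE 0.56), a member of the melanophore regulator family. *mitf* (ENSDARG00000003732) was at 20.1 and 6.14 RPM in EV, 69.7 and 48.6 RPM in GFPhigh, 27.9 and 17.3 RPM in GFPlow and 7.29 RPM in mCh+, and so was lower in EV replicate 2, where the pigment enzymes were high. No gene of the list was called in EV over GFPlow (0.0357% of all genes). At an unadjusted p under 0.05 there were 5 of 20, against 2348 of all 14006 genes. In GFPhigh over GFPlow 0 rose (0.757% of all genes) and 5 fell (3.66%). In GFPhigh over mCh+ 3 rose (3.14% of all genes) and 0 fell (4.74%), with *gpr143* at 5.06, *mlph* at 3.62 and *tfap2e* at 2.30. In GFPlow over mCh+ 2 rose (1.28% of all genes) and 0 fell (0.114%), with *gpr143* at 4.65 and *rab32* at 1.98.

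Of 13 tested iridophore and purine genes, 2 rose in EV over mCh+ (2.79% of all genes) and 1 fell (2.26%). *gda*, a guanine deaminase gene, was at 1077 and 1209 RPM in EV, 11.4 and 11.3 RPM in GFPhigh, 545 and 428 RPM in GFPlow and 45.4 RPM in mCh+ (EV over mCh+ 4.62, SE 0.26). *tfec*, a transcription factor gene of pigment progenitors that is also used in macrophages, was at 175 and 171 RPM in EV, 3.78 and 1.61 RPM in GFPhigh, 56.2 and 63.1 RPM in GFPlow and 7.69 RPM in mCh+ (4.32, SE 0.45). The EV libraries differed little for both, and both were low where *pnp4a* was highest. *alx4* (ENSDARG00000088332), a homeobox gene, fell in EV over mCh+ (−2.94, SE 0.49), with 6.86 and 10.9 RPM in EV and 73.1 RPM in mCh+. In EV over GFPhigh 2 rose (6.58% of all genes) and 1 fell (5.09%), *paics* at −1.63 (SE 0.25). In EV over GFPlow 0 of 13 were called (0.0357% of all genes). At an unadjusted p under 0.05 there were 5, against 2348 of all 14006 genes. Calls in GFPhigh over GFPlow were 0 higher (0.757% of all genes) and 2 lower (3.66%). Those in GFPhigh over mCh+ were 1 higher (3.14%) and 2 lower (4.74%), and those in GFPlow over mCh+ were 2 higher (1.28%) and 0 lower (0.114%). Of the 7 neural crest genes tested, 0 were called by limma in any comparison, with 0 to 2 at an unadjusted p under 0.05. Over all genes the share called ran from 0.0357% (EV over GFPlow) to 11.7% (EV over GFPhigh). *sox10* was at 0 and 3.17 RPM in EV, 2.86 and 2.03 RPM in GFPhigh, 3.64 and 3.33 RPM in GFPlow and 0 in mCh+.

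**Figure D5:**
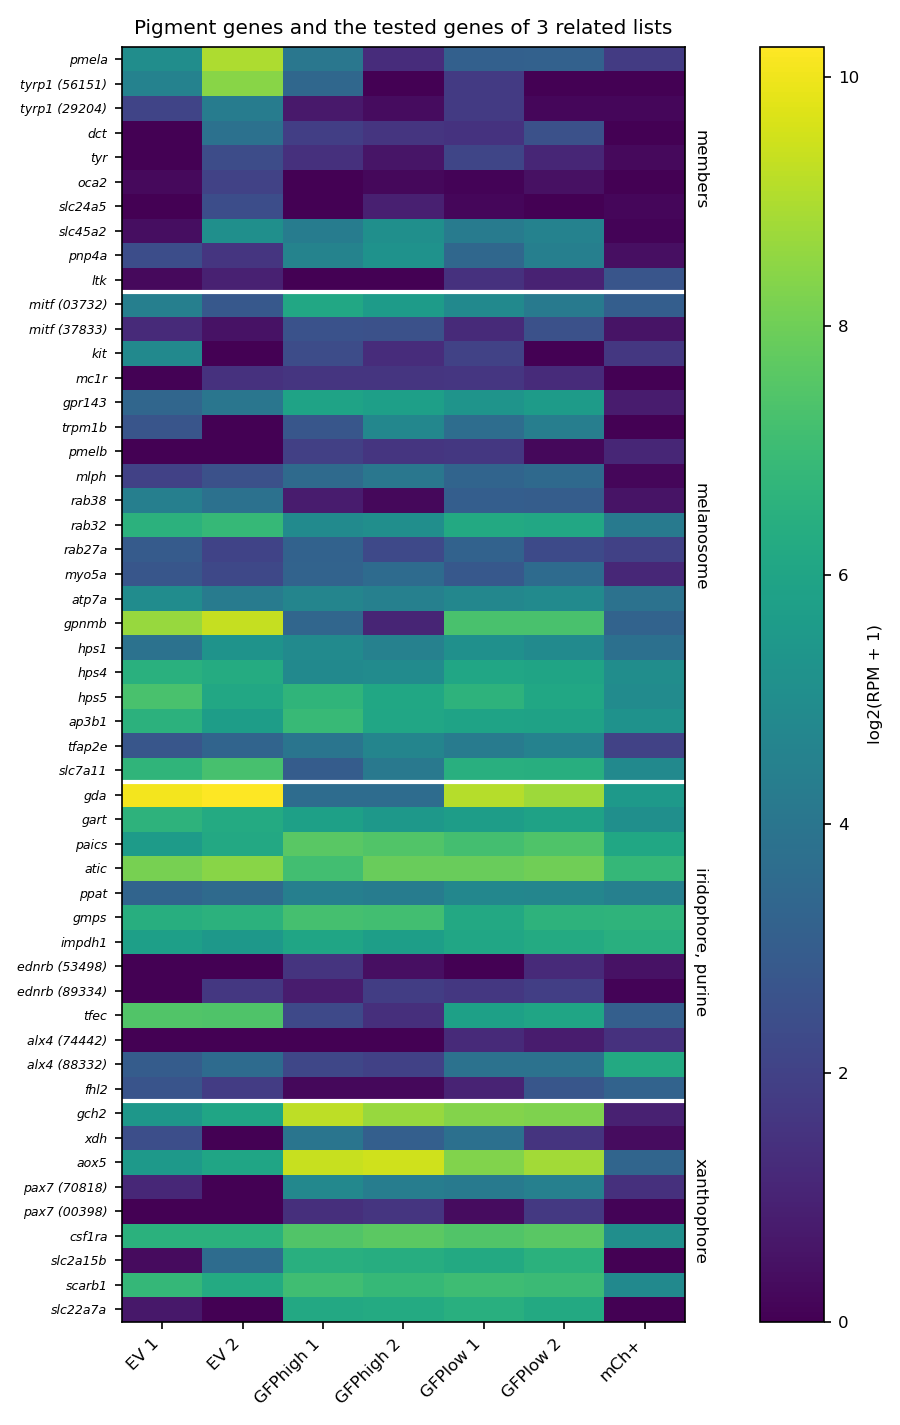
Log2(RPM + 1) of the 10 pigment genes and the tested genes of the melanosome, iridophore and purine, and xanthophore lists in the 7 libraries (color scale; bracketed digits end the gene identifier). The pigment enzymes are bright in EV replicate 2, *gpnmb*, *gda* and *tfec* in both EV libraries, and *gch2* and *aox5* in GFPhigh and GFPlow.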

How the data were processed

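RNA-seq libraries were made from sorted fractions by whole-transcript amplification (Quartz-Seq). The authors aligned reads to GRCz11 with HISAT2 (2.1.0), computed RPM with Subread (1.6.4) and deposited these RPM values, which sum over genes to the same total in each library and are not corrected for gene length. One RPM table was used per library. Gene names for 28988 of 32057 identifiers came from a reference table. Whole reads were recovered from the RPM steps, and values under 10 RPM lay at whole reads in all 7 distinct libraries (100% within 0.0051 RPM). The reads of GFPlow were used here for depth only. Although GFPlow met the same check, the count tests were run without it, so all comparisons with GFPlow rest on limma alone. limma (3.58.1, R 4.3.3; trend and robust) was fitted to log2(RPM + 1) of genes reaching 1 RPM in 2 or more of the 7 distinct libraries, with 3 residual degrees of freedom, and p-values were adjusted by Benjamini-Hochberg over all genes of a comparison. A fold change on this scale understates the change of low genes. The submitters describe the samples as biological replicates, each experiment being performed once, and the p-values measure only the spread between these libraries. As alternatives, the recovered reads of EV, GFPhigh and mCh+ were also tested with edgeR (4.0.16) and with DESeq2 (1.42.0). Read ratios have exact binomial and shares of reads Wilson intervals, at 95%. The script was tested on simulated data.

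All 10 pigment genes are named. Of each other list, the 4 tested genes of highest mean RPM and up to 4 called in EV over mCh+ or GFPlow were to be named, and others that are named were chosen after their values were seen. Members and lists were chosen with earlier results of these data known. Sequences were not used here.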

Additional observations from a re-analysis of the deposited data

How the results depend on the processing

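The count of called pigment genes moved most with the EV libraries. Calls over all genes moved too, rising without either EV library and falling without any GFPhigh or GFPlow library. A call gained or lost in such a fit is therefore not particular to the pigment genes. Leaving out each library in turn gave 0 to 5 calls in EV over mCh+, 0 to 5 in EV over GFPhigh, 0 to 4 in EV over GFPlow, 0 in GFPhigh over GFPlow, 0 to 3 in GFPhigh over mCh+ and 0 to 2 in GFPlow over mCh+. DESeq2 gave 4 calls in EV over mCh+, all higher in EV, where 8.45% of all genes it tested were called in either direction. It gave 2 in EV over GFPhigh (13.3%) and 2 in GFPhigh over mCh+ (11.6%). edgeR gave 0 calls in EV over mCh+ (0% of all genes it tested), 0 in EV over GFPhigh (2.18%) and 0 in GFPhigh over mCh+ (1.76%). With a pseudocount of 0.1 RPM there was 1 call in GFPhigh over mCh+ (6.38% of all genes) and 1 in GFPlow over mCh+ (1.01%). Quantile normalization gave 1 in GFPlow over mCh+ (2.68% of all genes). A fit without both EV libraries, chosen after seeing the data, gave 2 in GFPlow over mCh+ (7.86%) and 3 in GFPhigh over mCh+ (18.5%). Directions reversed in 3 cases: *tyr* in EV over mCh+ (−0.26 without EV replicate 2, up to 2.1043 without EV replicate 1), *slc45a2* in EV over GFPhigh (0.41 without EV replicate 1, down to −4.34 without EV replicate 2) and *ltk* in EV over GFPlow (0.19 with quantile normalization). The cause was not tested. Quantile normalization placed the median of all genes in EV over mCh+ at 0.06, against −0.18 on the deposited scale. Of the other values for single genes, 269 stayed on their side of the threshold, 29 passed it and 13 no longer did. *ltk* in GFPhigh over mCh+ had no adjusted p in DESeq2.

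Samples with the same replicate number did not deviate together in every pair of fractions (r = 0.0704 for EV and GFPhigh, 0.0697 for EV and GFPlow, 0.172 for GFPhigh and GFPlow), so the numbers were not used as a pairing. With the replicate number as a block, the calls were 0 in EV over mCh+, 1 in EV over GFPhigh and 2 in GFPhigh over mCh+, as without it. Over all genes the block gave 24 calls in EV over GFPlow, against 5 without it.

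With 2 libraries a fraction and 1 for mCh+, and with 1 read worth 0.0409 to 0.0846 RPM, genes such as *oca2* and *slc24a5* rest on few reads in most libraries.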
